A study of Mus musculus with 14 samples.

Results

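Omp and 6 further genes of the olfactory system were followed through the anterior cortex of mice carrying the DG allele of Vcp. The 7 genes were Omp and Cyp2a5 of the olfactory epithelium and Th, Eomes, Tbx21, Cdhr1 and Doc2g of olfactory bulb neurons, out of 19360 gene symbols in the deposited count table. Omp was chosen by its p-value, one of the smallest among the genes that were higher in heterozygous than in wild-type mice, and the other 6 were added as olfactory genes with their levels known. The genotype differences of all 7 genes are therefore descriptions, given with a standard error and no test, and the choice had no numeric threshold.

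Each of 14 mice of the strain C57BL/6J, all 15 months old, gave 1 RNA library from its anterior cortex. The 3 genotypes were wild type (WT, n = 4), heterozygous for the DG allele (DG/+, n = 6) and homozygous for it (DG/DG, n = 4). The labels named no further allele, transgene or treatment in any group, and no sex, litter, batch or dissection border. Libraries held 8.65 to 15.91 M counts over the transcripts used, and 16898 to 17327 genes with at least 1 read. The 12 markers of the cortex, all in the table, summed to 1660 to 1880 CPM in WT, 1530 to 2080 in DG/+ and 1570 to 1880 in DG/DG, where CPM is counts per mega-count of a library after TMM scaling.

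Smell begins in the epithelium of the nose, where sensory neurons detect odorants and send axons into the glomeruli of the olfactory bulb. There mitral and tufted cells relay the signal to the olfactory cortex, and periglomerular interneurons, many of them dopaminergic, modulate the input. In the mouse the bulb lies directly in front of the cortex, and the epithelium lies beneath it in the nasal cavity, separated by bone. Omp encodes the olfactory marker protein of mature sensory neurons, which is also carried in their axons into the bulb. Cyp2a5 encodes a cytochrome P450 known from the olfactory mucosa and the liver. Cdhr1 (a protocadherin-like protein, also called protocadherin 21) and Doc2g (a double C2 protein) mark mitral and tufted cells. Eomes (Tbr2) and Tbx21 (T-bet) encode T-box transcription factors of the same projection neurons, and Tbx21 is otherwise known as the master regulator of T helper 1 cells. Th encodes tyrosine hydroxylase, the rate-limiting enzyme of dopamine synthesis, which periglomerular cells share with catecholamine neurons elsewhere in the brain.

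The promoters of Cyp2a5 and Th are shown because these genes stood highest in different libraries. Both sequences are RefSeq sequence of the GRCm38.p6 assembly, from 250 bases before to 50 bases after the annotated start. Such an entry existed for 6 of the 7 genes, all but Omp. Cyp2a5 lies at chr7:26835089-26835388 on the plus strand and Th at chr7:142899946-142900245 on the minus strand.
Cyp2a5: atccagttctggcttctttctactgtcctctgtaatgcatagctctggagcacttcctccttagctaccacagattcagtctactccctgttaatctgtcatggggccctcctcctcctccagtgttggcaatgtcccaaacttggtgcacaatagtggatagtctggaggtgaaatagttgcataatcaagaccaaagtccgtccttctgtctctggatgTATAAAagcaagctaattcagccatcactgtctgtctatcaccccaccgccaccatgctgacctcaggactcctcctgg
Th: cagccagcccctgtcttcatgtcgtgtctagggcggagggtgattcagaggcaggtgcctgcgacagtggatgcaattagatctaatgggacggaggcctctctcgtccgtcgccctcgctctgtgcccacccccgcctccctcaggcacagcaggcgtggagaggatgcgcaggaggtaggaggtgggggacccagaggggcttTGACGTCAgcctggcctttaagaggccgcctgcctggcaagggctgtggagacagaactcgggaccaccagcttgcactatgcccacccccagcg
Capitals in Cyp2a5 mark the letters TATAAA at position -29, and capitals in Th mark the cyclic AMP response element TGACGTCA at position -45. Searched on both strands, TATAAA occurred in 14.2% and TGACGTCA in 1.88% of the 27025 mouse promoters of the same length. The T-box core letters GGTGTGA were held by 3.96% of promoters and the palindromic EBF motif by 0.914%. Neither motif occurred in the 6 promoters, which do not include that of Omp. These are matches of letters and give no measure of binding.

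All 7 genes were rare transcripts in this tissue. Per kilobase of transcript, the mean level over the 14 libraries was 2.82 CPM per kb for Cdhr1, 2.71 for Doc2g and 2.05 for Th. It was 0.477 for Omp, 0.391 for Cyp2a5, 0.276 for Eomes and 0.107 for Tbx21. The ranges of neighbours in this order overlapped between libraries. Summed over all libraries, Cdhr1 had 2126 reads, Doc2g 676, Th 653, Omp 181, Cyp2a5 143, Eomes 136 and Tbx21 45. Counting error is therefore wide for the last 4 genes. A count of 2 reads has a 95% Poisson interval of 0.242 to 7.22 reads and a count of 35 reads one of 24.4 to 48.7, and such intervals cover counting error only. In bulk RNA fewer cells of a type and less RNA per cell cannot be told apart.

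**Figure D1:**
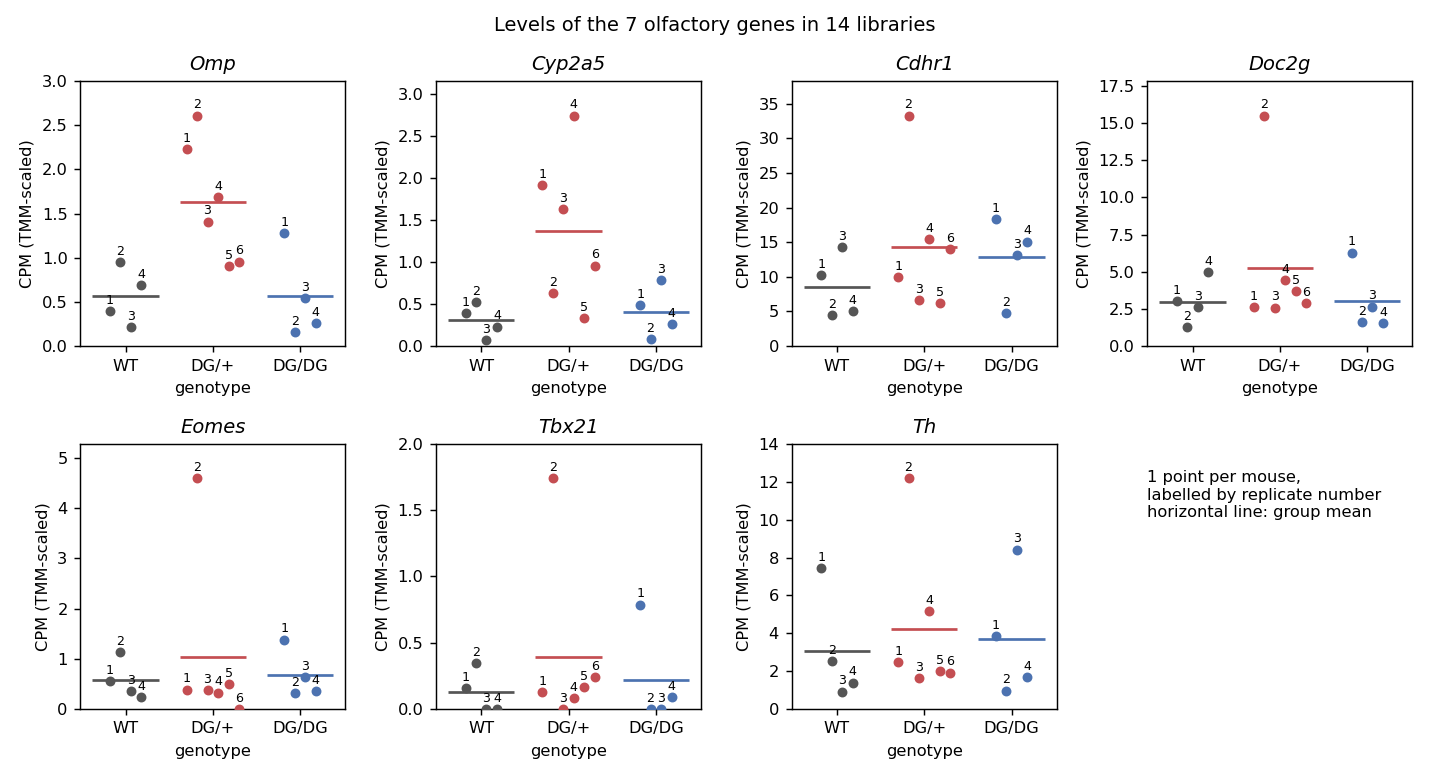
Level of each of the 7 genes in each of the 14 libraries, in CPM, by genotype; each panel has its own axis, points are single mice labelled by replicate number, and horizontal lines are group means. Omp and Cyp2a5 reach 2.61 and 2.74 CPM in DG/+, while a single DG/+ library holds the highest value of each of the other 5 genes.

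Of the epithelium genes, Omp (NM_011010, chr7:98143359-98145447 in mm10) had 5, 11, 3 and 6 reads in WT replicates 1 to 4, which is 0.395, 0.955, 0.211 and 0.694 CPM. In DG/+ the lowest value was 0.908, the median 1.55 and the highest 2.61 CPM. DG/DG replicates 1 to 4 stood at 1.28, 0.16, 0.547 and 0.261 CPM. DG/+ replicates 1 to 4, with 35, 33, 19 and 21 reads, were the 4 highest of all 14 libraries. DG/+ replicates 5 and 6, with 11 and 12 reads, were level with the highest WT library, so the groups overlapped. The means were 0.564 ± 0.328 CPM in WT (SD, n = 4), 1.63 ± 0.687 in DG/+ (SD, n = 6) and 0.561 ± 0.504 in DG/DG (SD, n = 4). The fitted log2 fold change was 1.58 (SE 0.509) in DG/+ and -0.003 (SE 0.634) in DG/DG, each against WT, and it was -1.58 (SE 0.508) in DG/DG relative to DG/+. Without DG/+ replicates 1 to 4 the first value was 0.77 and the last was -0.77, an alternative chosen after the levels were seen. The value for DG/DG against WT was -0.73 without DG/DG replicate 1 and 0.41 without WT replicate 2.

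Omp is a gene without introns that lies inside Capn5, which encodes calpain 5. Both genes are on the minus strand, and in GENCODE M21 no Capn5 exon overlaps Omp, the nearest one starting at chr7:98145516. Unspliced Capn5 RNA cannot be told apart from Omp RNA in this count. Capn5 stood at 52.4 ± 4.0 CPM in WT (SD, n = 4), 51.9 ± 7.45 in DG/+ (SD, n = 6) and 52.7 ± 3.56 in DG/DG (SD, n = 4). Its log2 fold change for DG/+ against WT was -0.01 with an edgeR adjusted p of 1.0, and its 3 means lay within 1 SD of each other.

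Cyp2a5 (NM_007812, chr7:26835339-26843264) had 5, 6, 1 and 2 reads in WT replicates 1 to 4, or 0.395, 0.521, 0.0703 and 0.231 CPM. In DG/+ the lowest value was 0.33, the median 1.29 and the highest 2.74 CPM, and in DG/DG the 4 values were 0.491, 0.08, 0.781 and 0.261 CPM. DG/+ replicates 1, 3 and 4, with 30, 22 and 34 reads, were the 3 highest libraries. DG/+ replicate 2, which had the highest Omp level in CPM, held 8 Cyp2a5 reads. Means were 0.304 ± 0.196 CPM in WT (SD, n = 4), 1.37 ± 0.897 in DG/+ (SD, n = 6) and 0.403 ± 0.303 in DG/DG (SD, n = 4). The log2 fold change was 2.16 (SE 0.648) in DG/+ and 0.42 (SE 0.81) in DG/DG, each against WT, and it was -1.74 (SE 0.612) in DG/DG relative to DG/+. The value for DG/DG against WT was -0.16 without DG/DG replicate 3 and 0.80 without WT replicate 2. Cyp2a4, a near-identical paralog, had no entry under that symbol in the deposited count table, so its reads could lie within the count of Cyp2a5.

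Some further epithelium genes, picked after their values were seen, were read in the same libraries. Cyp2g1, an olfactory P450 gene whose end lies 14142 bases before the start of Cyp2a5, had 18, 14 and 13 reads in DG/+ replicates 1, 3 and 4. It had 0 to 2 reads in each of the other 11 libraries, and none in DG/+ replicate 2. Ugt2a1, which encodes an olfactory glucuronosyltransferase, had 9, 10 and 11 reads in DG/+ replicates 1, 3 and 4, 5 in replicate 6 and at most 2 elsewhere. Ugt2a1 shares exons with Ugt2a2, so the split between them is uncertain. S100a5, a calcium-binding protein of sensory neurons, had 11, 20, 6 and 7 reads in DG/+ replicates 1 to 4, 5 in DG/DG replicate 1 and at most 2 elsewhere. Stoml3, a stomatin-like protein of sensory neurons, had 15, 2, 6, 5, 7 and 2 reads in DG/+ replicates 1 to 6. It had 0 to 2 reads in the WT and 2 to 5 in the DG/DG libraries. S100a5 thus had its most reads in the 4 libraries in which Omp was highest, but Stoml3 did not, with 2 reads where Omp reached 2.61 CPM. Other genes of the same lists went both ways in DG/+ against WT. Cnga2 and Cngb1 encode subunits of the olfactory cyclic nucleotide-gated channel. In a fit without the filter, their log2 fold change for DG/+ against WT was -0.29 (SE 0.491) and -1.08 (SE 0.711). It was -0.58 (SE 1.2) for the odorant-binding protein gene Obp1a and -0.48 (SE 0.804) for the keratin gene Krt8. On the other side it was 1.36 (SE 0.563) for Umodl1, 1.5 (SE 1.07) for Bpifb3 and 0.68 (SE 1.54) for Cyp2f2. For Ugt2a2, which had 0 reads in WT, it was 5.3 (SE 1.32). In the same fit Cyp2g1 stood at 3.43 (SE 1.21), S100a5 at 2.99 (SE 1.1), Ugt2a1 at 2.71 (SE 0.794) and Stoml3 at 2.03 (SE 0.659).

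The mitral and tufted cell genes were highest in 1 library. Cdhr1 (NM_130878, chr14:37077849-37098347) stood at 10.3, 4.43, 14.3 and 5.09 CPM in WT replicates 1 to 4. In DG/+ its lowest value was 6.19, its median 12 and its highest 33.3 CPM, and in DG/DG it stood at 18.3, 4.72, 13.2 and 15.1 CPM. The highest value belonged to DG/+ replicate 2 with 420 reads, and the remaining DG/+ libraries reached 15.5 CPM. The groups overlapped, with means of 8.53 ± 4.67 CPM in WT (SD, n = 4), 14.3 ± 10 in DG/+ (SD, n = 6) and 12.8 ± 5.79 in DG/DG (SD, n = 4). The log2 fold change for DG/+ against WT was 0.72 (SE 0.529), and 0.28 without DG/+ replicate 2. For DG/DG against WT it was 0.56 (SE 0.575). DG/DG relative to DG/+ gave -0.16 (SE 0.514), and 0.29 without DG/+ replicate 2.

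Doc2g (NM_021791, chr19:4003385-4007005) stood at 3.0, 1.3, 2.6 and 4.97 CPM in WT replicates 1 to 4. DG/+ replicate 2 held 195 reads, or 15.5 CPM, and the other 5 DG/+ libraries lay between 2.59 and 4.43 CPM. DG/DG replicates 1 to 4 stood at 6.29, 1.6, 2.65 and 1.57 CPM. Apart from DG/+ replicate 2 and DG/DG replicate 1, all libraries lay within the WT range. Means were 2.97 ± 1.52 CPM in WT (SD, n = 4), 5.28 ± 5.04 in DG/+ (SD, n = 6) and 3.03 ± 2.23 in DG/DG (SD, n = 4). The log2 fold change was 0.85 (SE 0.602) for DG/+ against WT and 0.15 without DG/+ replicate 2. DG/DG against WT gave 0.03 (SE 0.674), with -0.58 without DG/DG replicate 1 and 0.36 without WT replicate 4. DG/DG relative to DG/+ gave -0.82 (SE 0.6), and -0.11 without that library.

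Eomes (NM_001164789, chr9:118478186-118486132) and Tbx21 (NM_019507, chr11:97098007-97115331) did not pass the filter on low counts. Eomes had 7, 13, 5 and 2 reads in WT replicates 1 to 4 and 14, 4, 8 and 4 in DG/DG replicates 1 to 4. In DG/+ replicate 2 it had 58 reads, or 4.6 CPM, and in the other DG/+ libraries 0 to 6 reads. Tbx21 had 22 reads, or 1.74 CPM, in DG/+ replicate 2, 8 reads, or 0.786 CPM, in DG/DG replicate 1 and 4 reads in WT replicate 2. It had no read in 5 libraries, and in a single library 3 counts correspond to 0.191 to 0.347 CPM. Eomes and Tbx21 shared their 2 highest libraries , DG/+ replicate 2 and DG/DG replicate 1. In a fit without the filter the log2 fold change for DG/+ against WT was 0.82 (SE 0.98) for Eomes and 1.53 (SE 1.31) for Tbx21. For DG/DG against WT it was 0.18 (SE 1.12) for Eomes and 0.60 (SE 1.56) for Tbx21. Of 15 genes of T and natural killer cells, the other cells known for Tbx21 and Eomes, 11 were in the table and 8 of these had fewer than 10 reads in all. The list summed to 2.88 to 6.4 CPM in WT, 1.4 to 14.6 in DG/+ and 1.84 to 12.4 in DG/DG, and to 4.99 CPM in DG/+ replicate 2.

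Th (NM_009377, chr7:142892779-142899995) had high values in all 3 genotypes. It stood at 7.43, 2.52, 0.913 and 1.39 CPM in WT replicates 1 to 4, and at 3.83, 0.96, 8.43 and 1.66 CPM in DG/DG replicates 1 to 4. In DG/+ the lowest value was 1.63, the median 2.23 and the highest 12.2 CPM. The 3 highest libraries were DG/+ replicate 2, DG/DG replicate 3 and WT replicate 1, so every genotype held 1 of them. Means were 3.06 ± 2.99 CPM in WT (SD, n = 4), 4.23 ± 4.11 in DG/+ (SD, n = 6) and 3.72 ± 3.37 in DG/DG (SD, n = 4). The log2 fold change for DG/+ against WT was 0.44 (SE 0.772), and -0.24 without DG/+ replicate 2, 1.40 without WT replicate 1. DG/DG against WT gave 0.27 (SE 0.847), with -0.55 without DG/DG replicate 3 and 1.22 without WT replicate 1. For DG/DG against DG/+ it was -0.17 (SE 0.758), and 0.51 without DG/+ replicate 2.

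Other genes of monoamine neurons and of bulb interneurons had different levels in these 3 libraries. Slc18a2, the vesicular monoamine transporter, stood at 3.56 CPM in WT replicate 1 and 4.61 CPM in DG/DG replicate 3, but at 0.0792 CPM, a single read, in DG/+ replicate 2. Slc6a3, the dopamine transporter, stood at 1.19, 1.02 and 0.396 CPM in the same order and was highest in DG/DG replicate 4 at 3.57 CPM. Ddc of the bulb interneuron list, which makes dopamine from L-DOPA, stood at 14.6 CPM in WT replicate 1, at 15.3 CPM in DG/DG replicate 3 and at 4.91 CPM in DG/+ replicate 2. Sp8, a transcription factor of bulb interneurons, stood at 7.53 CPM in DG/+ replicate 2, and at 0.632 to 2.95 CPM in the other 13 libraries. Scgn, the calcium sensor secretagogin of bulb interneurons, had 33 reads in DG/+ replicate 2 and at most 20 in any other library. Other genes of the interneuron list had another order. Calb2, the calcium-binding protein calretinin, stood at 48.0 CPM in WT replicate 1, 43.7 in DG/+ replicate 2 and 46.8 in DG/DG replicate 3. Trh, thyrotropin-releasing hormone, stood at 17.8, 5.31 and 20.5 CPM in the same order. These genes were picked after their values were seen. Of 13 genes of midbrain and brainstem catecholamine neurons, 12 were in the table and 6 of these had fewer than 10 reads. The list, without Th, summed to 1.96 to 7.03 CPM in WT, 0.889 to 3.33 in DG/+ and 1.67 to 6.87 in DG/DG. The part of these cells in the level of Th was not tested.

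**Figure D2:**
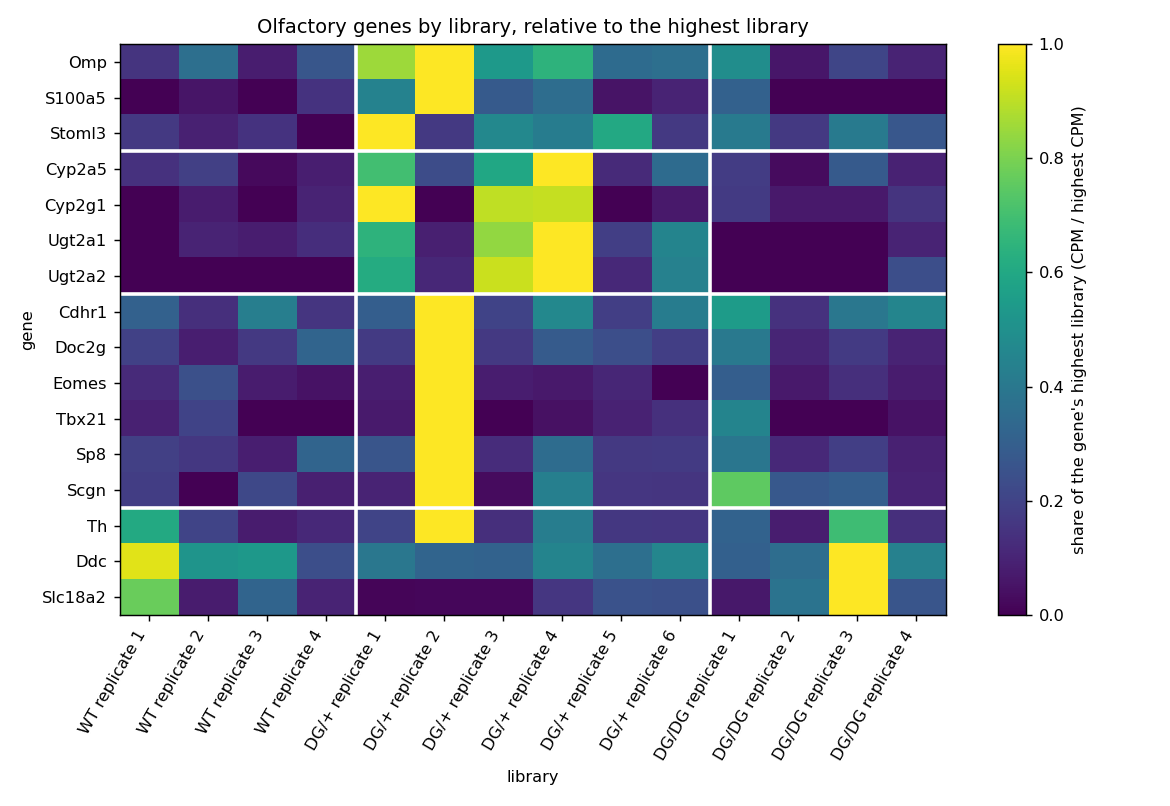
Level of the 7 genes and of further olfactory genes in each of the 14 libraries, as CPM divided by the gene's highest CPM over all libraries (0 to 1), with libraries in columns by genotype and replicate. Cyp2a5 and Cyp2g1 are highest in DG/+ replicates 1, 3 and 4, and Omp, Cdhr1, Doc2g, Eomes and Tbx21 in DG/+ replicate 2.

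In none of the 3 comparisons was any of the 5 genes that passed the filter called, and 0 of 5 had ranges that did not overlap between the groups. The background was 0 of 14565 genes called, or 0.0%, in each comparison by edgeR's quasi-likelihood test at an adjusted p of 0.05. By edgeR 233 genes had an unadjusted p below 0.05 for DG/+ against WT, 746 did so when DG/DG was set against WT and 481 when it was set against DG/+. DESeq2 called 0 genes in each, with 211, 728 and 473 below the unadjusted threshold, and limma-voom called 0, with 251, 633 and 484. Among all genes, DG/+ lay wholly above WT for 0.144% and wholly below for 0.172%, or 0.316% in all. DG/DG lay wholly above WT for 1.43% and below for 1.19%, or 2.62% in all. DG/DG lay wholly above DG/+ for 0.803% and below for 0.405%, or 1.21% in all. The median log2 fold change over all genes was -0.007, 0.0 and 0.002, and the median absolute value was 0.07, 0.1 and 0.09 in the same order. The comparisons against WT share their controls. In the authors' deposited table the log2 fold change of DG/+ against WT was 1.45 for Omp and 1.89 for Cyp2a5, and that of DG/DG against WT 0.0 and 0.34.

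**Figure D3:**
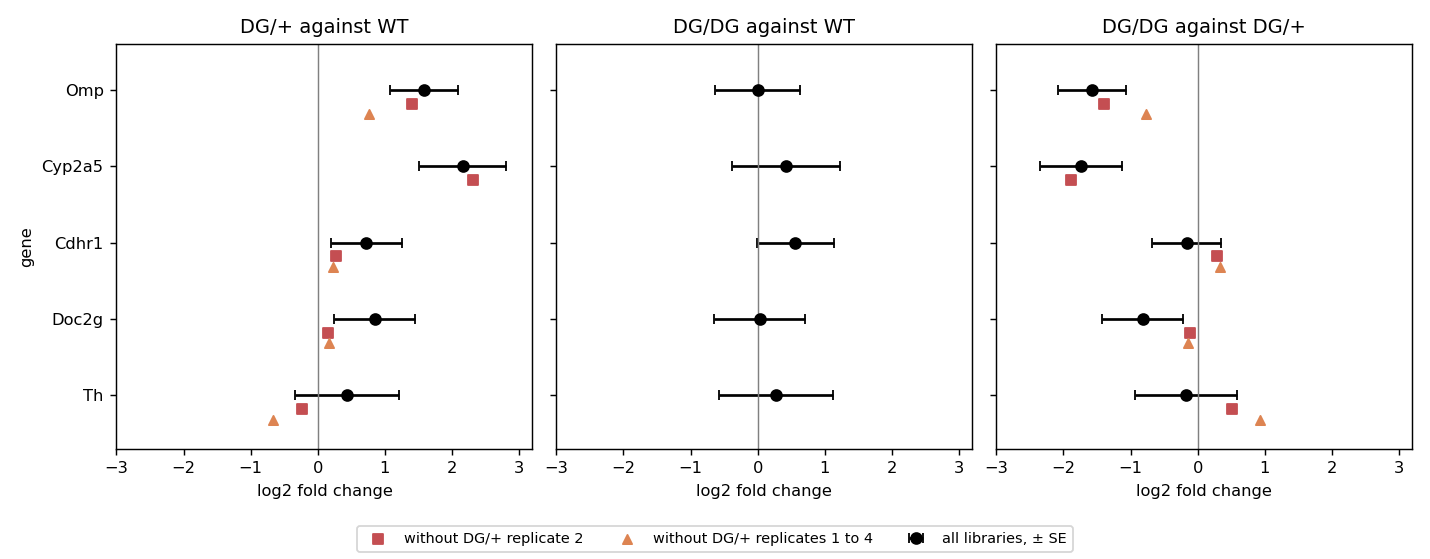
Log2 fold change of the 5 genes that passed the filter on low counts in the 3 comparisons from edgeR; circles are the fit to all 14 libraries with bars of 1 SE, and in the comparisons with DG/+ squares leave out DG/+ replicate 2 and triangles DG/+ replicates 1 to 4, where Cyp2a5 did not pass the filter. Omp goes from 1.58 to 0.77 in DG/+ against WT without replicates 1 to 4, and Th from 0.44 to -0.24 without replicate 2.

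How the 7 genes varied together was measured in 21 pairs over the 14 libraries, on the log2 CPM scale (prior count 2). Since the genes were chosen with their levels known, the p-values of these correlations are no independent evidence. The pair of epithelium genes, Omp and Cyp2a5, had the highest correlation. Pearson's r was 0.78 (permutation p = 0.00114, adjusted over 21 pairs 0.0239) and Spearman's rho was 0.81 (permutation p = 0.0006, adjusted 0.0126). Without the 2 libraries farthest from the median Omp level, r was 0.64 (permutation p = 0.0272). Within the 6 DG/+ libraries r was 0.37, and within the 8 libraries of WT and DG/DG together it was 0.72. Neither value was particular to this pair. Pairs of an epithelium gene with a bulb gene had r from -0.5 (Cyp2a5 with Tbx21) to 0.73 (Omp with Th) within DG/+. In WT and DG/DG together they had r from 0.01 (Omp with Cdhr1) to 0.87 (Cyp2a5 with Th).

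Omp with Cyp2a5 was the only pair of the 21 that passed an adjusted p of 0.05. The number that passed rested on single libraries. It was 0 without WT replicate 3, without DG/+ replicate 1 or without DG/DG replicate 2. It was 7 without WT replicate 2, 4 without WT replicate 4, 3 without DG/DG replicate 3 or replicate 4, and 2 without DG/+ replicate 6.

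The 10 pairs among the bulb genes had r between 0.38 and 0.73, with a median of 0.57, and none passed. Eomes and Tbx21 stood highest among them, with r of 0.73 (permutation p = 0.00518, adjusted 0.0544) and rho of 0.55 (permutation p = 0.0436, adjusted 0.199). Without the 2 libraries farthest from the median Eomes level r was 0.84, and without DG/+ replicate 2 alone it was 0.43. Without that library the median r of the bulb pairs was 0.30. The 10 pairs of an epithelium gene with a bulb gene had r between -0.03 and 0.59, with a median of 0.34, and none passed. Omp with Doc2g was the highest of these (r 0.59, permutation p = 0.0229, adjusted 0.0727) and Cyp2a5 with Eomes the lowest (r -0.03, permutation p = 0.908, adjusted 0.908).

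**Figure D4:**
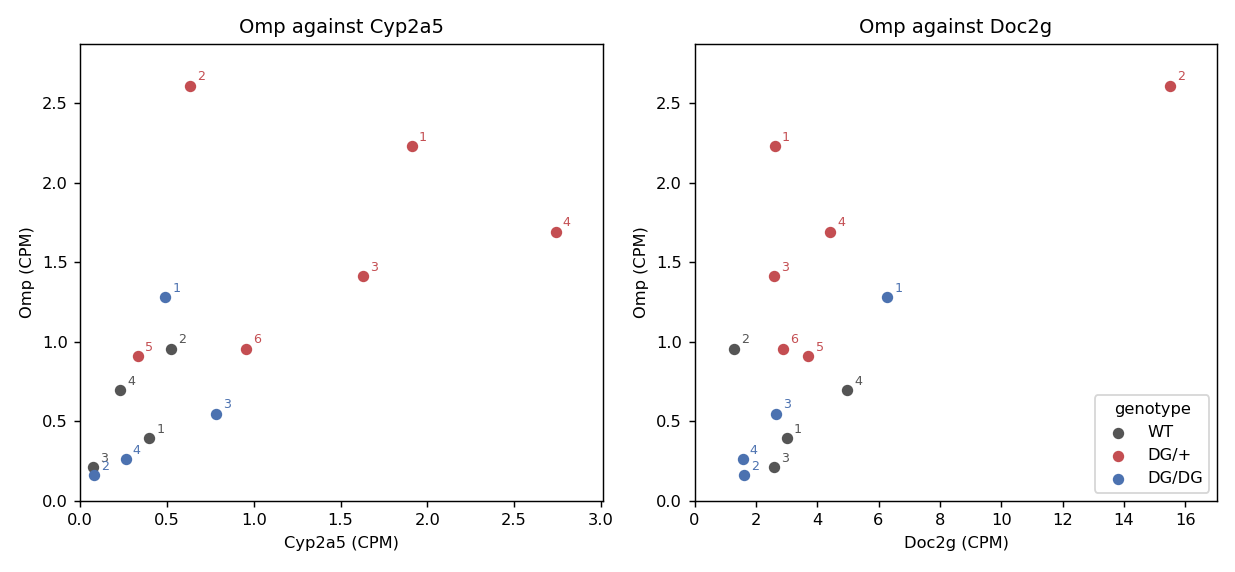
Level of Omp against that of Cyp2a5 (left) and of Doc2g (right) in the 14 libraries, in CPM on linear axes; each point is 1 mouse, coloured by genotype and labelled by replicate number. DG/+ replicate 2 has the highest Omp level, 2.61 CPM, with 0.634 CPM of Cyp2a5 and 15.5 CPM of Doc2g.

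No gene of the wider olfactory lists was called in any comparison. Of 18 genes of olfactory sensory neurons, 17 were in the table and 11 were tested, with 0 called in any of the 3 comparisons by edgeR. Their median log2 fold change for DG/+ against WT was 0.05, beside -0.007 over all genes. Among the tested genes were Gnal, Adcy3, Ric8b and Lhx2, with WT means of 239, 86.5, 75.9 and 31.2 CPM, beside 0.564 CPM for Omp. The filter left out Cnga2, Cngb1, Rtp2, Stoml3, S100a5 and Umodl1, so the median does not cover them. In the fit without the filter these stood at -0.29, -1.08, -0.03, 2.03, 2.99 and 1.36 in the same order. Gnal, the olfactory G protein alpha subunit also used in the striatum, had a log2 fold change of 0.27 (SE 0.272) for DG/+ against WT, and Adcy3, the adenylyl cyclase of olfactory cilia, had 0.00 (SE 0.0675), both with an edgeR adjusted p of 1.0. Ric8b, which assists the folding of Gnal protein, stood at 0.05 and Lhx2, a transcription factor of sensory neuron development, at 0.01, again with an adjusted p of 1.0 by edgeR. Rtp1, which brings odorant receptors to the cell surface, stood at -0.69 (SE 0.626) and Cnga4, a further channel subunit, at -0.32 (SE 0.304), both with an edgeR adjusted p of 1.0. Both were added to the named genes after their values were seen.

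Of 15 genes of olfactory mucosa support and gland cells, 14 were in the table and 4 were tested, with 0 called by edgeR. The list, which holds Cyp2a5, summed to 3.91 to 9.7 CPM in WT, 3.8 to 10.6 in DG/+ and 4.76 to 11.4 in DG/DG. The 13 genes other than Cyp2a5 summed to 7.65, 3.17, 8.15, 7.89, 7.34 and 6.22 CPM in DG/+ replicates 1 to 6. Without Cyp2a5, DG/+ replicates 1, 3 and 4 stood close to replicate 5. WT replicate 3 at 9.63 CPM and DG/DG replicate 1 at 10.9 CPM stood above them. These sums follow their most abundant genes. Cyp2g1, Ugt2a1 and Ugt2a2 had their most reads in DG/+ replicates 1, 3 and 4 and were no small part of the sums there. In this order they stood at 1.04, 0.741 and 0.667 CPM in replicate 3, and at 1.05, 0.885 and 0.724 CPM in replicate 4. In DG/+ replicate 5 they stood at 0.0, 0.165 and 0.0825 CPM. Cyp2f2, a P450 of airway and mucosa picked after its values were seen, had 48 reads in DG/DG replicate 1, or 4.71 CPM, and at most 0.741 CPM elsewhere. Sec14l3, a lipid transfer protein of mucosa, stood at 2.49 CPM in DG/+ and 2.43 CPM in WT on average. In WT replicate 3 it stood at 5.34 CPM. Krt18, a keratin of simple epithelia, had a log2 fold change of -0.26 (SE 0.587) for DG/+ against WT, and Trp63, a transcription factor of basal cells, one of -0.16 (SE 0.412), both with an edgeR adjusted p of 1.0. The part of mucosa tissue in the levels of Omp and Cyp2a5 was not tested.

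Of 13 mitral and tufted cell genes, 12 were in the table and 7 were tested, with 0 called by edgeR and a median of -0.05 for DG/+ against WT. Of the 8 genes other than Cdhr1, Doc2g, Eomes and Tbx21, 2 (Barhl2 and Lhx1) were highest in DG/+ replicate 2 and 3 (Slc17a6, Lhx5 and Ebf3) in WT replicate 1. Genes of the list that cortex also expresses, such as Reln, the secreted protein reelin, at -0.08 and Tbr1, a T-box factor of deep cortical layers, at 0.15, had small log2 fold changes. Slc17a6, the vesicular glutamate transporter VGLUT2, stood at -0.55 (SE 0.323) with an edgeR adjusted p of 1.0.

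All 21 genes of bulb interneurons and periglomerular cells were in the table and 20 were tested. None was called by edgeR, and the median for DG/+ against WT was 0.10. Of the 20 genes other than Th, 7 were highest in DG/+ replicate 2 and 5 in DG/DG replicate 3, and these libraries had the highest sums, 618 and 621 CPM. Meis2, a homeodomain factor of bulb interneurons and of striatal neurons, had a log2 fold change of 0.42. Synpr, the synaptic vesicle protein synaptoporin, had one of 0.18, while Nr4a2 and Gng4 stood at -0.09 and -0.02. All 4 had an edgeR adjusted p of 1.0.

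Odorant receptors, the most specific genes of sensory neurons, had few reads for the most part. The table held 150 Olfr genes, of which 128 had fewer than 10 reads in all and 5 were tested, with 0 called by edgeR. Their sum was 13 to 35.1 CPM in WT, 13.8 to 36.5 in DG/+ and 14.3 to 29.4 in DG/DG. 4 genes made up most of it, of which Olfr613 had 1215 reads, Olfr856-ps1 799, Olfr287 607 and Olfr316 223. Without these 4, the remaining 146 summed to 4.58 to 7.38 CPM in WT, 5.56 to 8.24 in DG/+ and 4.06 to 6.96 in DG/DG, so the ranges overlapped. A library had a read in 22 to 43 Olfr genes, and the 43 belonged to DG/+ replicate 2. The table further held 3 Taar, 15 Vmn1r and 35 Vmn2r genes, the trace amine and vomeronasal receptors, with 0 called by edgeR.

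The genes whose levels were most like Omp over the 14 libraries were ranked by Pearson's r among 14017 genes, as a description. They were Ddx21 and Plekha2 with r of 0.87, Spry2, Pmepa1 and Myl4 with 0.86, and Myst4, Akt2 and Prss23 with 0.85. None of these belonged to an olfactory list. Over all genes r with Omp had a mean of 0.0 and an SD of 0.34. Of the bulb genes, Sp8 ranked 133 with r of 0.74, Doc2g 654 with 0.59, Th 1364 with 0.48, Cdhr1 2794 with 0.31 and Gng4 6429 with 0.03. Among the genes most like Cdhr1 were Gng4, a G protein gamma subunit of the interneuron list, with r of 0.88, Cacng5 with 0.86, Oaz2-ps with 0.83, Gpsm1 with 0.82, Pid1 with 0.81, Fam171a1 with 0.80 and Bend7 with 0.79. Over all genes r with Cdhr1 had a mean of 0.01 and an SD of 0.31.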

How the data were processed

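The authors deposited 1 table of 24939 RefSeq transcripts with raw read counts, log2 values they had normalized, and their own edgeR log2 fold changes and p-values. The log2 columns have an upper quartile of 9.36 in every library and how the authors made them is not stated. The submitters' processing notes name mm10 and edgeR, without a version; for the aligner, counter and strand setting the sources used here give nothing. Per gene symbol the transcript with the most reads was kept, leaving out 5579 transcripts. Counts were fitted over all 14 libraries with edgeR 4.0.16 in R 4.3.3 (default filter, 14565 genes, TMM scaling, robust quasi-likelihood), with Benjamini-Hochberg adjustment over all genes and a threshold of 0.05. CPM are TMM-scaled. DESeq2 1.42.0 and limma 3.58.1 were alternatives, with other scalings, filters and left-out libraries. Correlations used 100000 permutations, two-sided, over 21 pairs. Precision follows from 8.65 to 15.91 M counts per library; 3 counts served as the floor.

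The members and the 13 gene lists were chosen with earlier results of these data known. By rule, up to 4 genes with the most reads were named per olfactory list, with the 8 genes most like Omp and most like Cdhr1, of which 1 is not reported here; other genes named were picked after their values were seen. Replicates are separate mice by mouse number. In WT mouse number and replicate number differ for 3 of 4 mice, and the replicate number is used. Promoter sequences came from RefSeq (GRCm38.p6).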

Additional observations from a re-analysis of the deposited data

Results flagged for a closer look

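Of 21 groups examined, 7 genes in 3 genotypes, 6 held a library that stood apart from the rest, its gap to the nearest library exceeding the 95% critical share of the range (0.625 for 6 libraries, 0.829 for 4). Chance flags about 1 in 20 groups if these are independent and their values normally distributed. Here most flags come from 1 library, counts are low and the genes were chosen with their levels known. The number of flags therefore cannot be set against that rate.

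DG/+ replicate 2 stood apart for all 5 bulb genes. Its Doc2g level was 15.5 CPM, with 4.43 CPM in the nearest DG/+ library and a gap of 0.858 of the range. Cdhr1 was 33.3 CPM beside 15.5 CPM, a gap of 0.658. Eomes was 4.6 CPM beside 0.495 CPM (0.892), and Tbx21 was 1.74 CPM beside 0.239 CPM (0.863). Th was 12.2 CPM beside 5.15 CPM (0.667).

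In DG/DG, Tbx21 stood at 0.786 CPM in replicate 1, from 8 reads, beside 0.0872 CPM in the nearest library, a gap of 0.889 of the range. Neither Omp nor Cyp2a5 held such a library in any genotype.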

How the results depend on the processing

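The alternatives included DESeq2, limma-voom, limma on the authors' log2 values and fits without 1 library. The count of called genes was 0 in all 76 combinations of an alternative with 1 of the 3 comparisons. With the replicate number as a block it was 0, with 652, 619 and 350 genes at an unadjusted p below 0.05 by edgeR; same-numbered libraries had correlations of deviations from -0.215 to 0.292 over 12 pairs, so the numbers were not taken as a pairing. With the block, the log2 fold change of Omp for DG/+ against WT was 1.86 and that of Cyp2a5 2.38. Of 359 log2 fold changes of the 5 tested genes under alternatives, 335 kept the sign and 2 moved by more than 1 SD, both of Omp without DG/+ replicates 1 to 4 (0.766 in DG/+ against WT and -0.766 in DG/DG relative to DG/+, added after seeing the data). Leaving out 1 library gave 1.27 to 1.99 for Omp in DG/+ against WT. For Cyp2a5 it gave 1.78 to 2.55, but only over the fits in which this gene passed the filter. Cyp2a5 did not pass without DG/+ replicate 1, 3, 4 or 6, so its range leaves out those fits. It had 19 alternatives in this comparison, beside 26 for Omp. Without DG/+ replicates 1, 3 and 4 together, also added, Omp stood at 1.44 and Cyp2a5 fell below the filter. The count of correlated pairs was 1 with ranks, a prior count of 0.5, unscaled totals and the authors' log2 values, ranged from 0 to 7 when 1 library was left out, and was 0 within the 6 DG/+ libraries alone, also added, with fewer libraries by construction. Read depth limits Omp, Cyp2a5, Eomes and Tbx21 most.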

Other observations

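Further lists of neighbouring tissue were measured in the same libraries, and none held a called gene by edgeR in any comparison. The 10 genes of the piriform cortex and anterior olfactory areas had a median log2 fold change of 0.03 for DG/+ against WT, the 9 genes of olfactory ensheathing glia 0.07, and the 8 tested genes of the rostral migratory stream 0.03. The 9 striatum genes tested were all above 0, with a median of 0.60 in DG/+ and 0.52 in DG/DG, each against WT. Their sums were 1420 CPM in DG/+ replicate 4 and 1330 CPM in DG/DG replicate 3, with 207 to 716 CPM in the other DG/+, 214 to 628 in the other DG/DG and 296 to 719 in the WT libraries. The 9 choroid plexus genes were all below 0, with medians of -0.53 and -1.40. All 9 were highest in WT replicate 3, whose sum was 1370 CPM beside 34.6 to 75.6 CPM in the other WT libraries. Of 10 liver genes, 7 were in the table and 1 was tested; albumin (Alb), the most abundant liver transcript, had no read in 11 libraries, and the list, which holds Ttr, a gene that the choroid plexus also expresses, summed to 2.49 to 1170 CPM.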
